A study of Mus musculus with 16 samples.

Results

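The 43 genes described here encode contractile and calcium-handling proteins, many of which set slow and fast muscle fibres apart. They were listed as 16 slow genes, 17 fast genes and 10 other sarcomere and calcium genes. Each gene was followed through its probe set with a single gene symbol, the brightest on average over the arrays where it had several, and all 43 were found among the 22180 genes with such a probe set. All 43 lay above their array's median in every mouse, and 13601 genes in all were bright enough to be tested. The genes came from whole gastrocnemius, a mostly fast calf muscle, measured in 16 male mice of the FVB/n strain (1 array each), aged 16 weeks at death. The deletion mice (n = 8) carried Mx1-Cre and floxed alleles of FoxO1, FoxO3 and FoxO4. The control mice (n = 8) were littermates with the same floxed alleles and no Cre. Polyinosine:cytidine, which switches the interferon-responsive Mx1 promoter on, was given in 3 injections at 4 to 5 weeks of age. All mice ate a high-fat diet (58% fat, 25.5% carbohydrate, 16.4% protein) for 8 weeks, begun at 7 to 8 weeks of age. The labels call the deletion endothelial-directed, but the Mx1 promoter is not restricted to 1 cell type. Cre was present in every deletion mouse and in no control, so Cre and the deletion cannot be told apart.

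Muscle fibres differ in the version of each contractile protein they make. Slow fibres carry the slow myosin heavy chain and its own light chains, troponins and calcium pump, contract slowly and resist fatigue, whereas fast fibres carry separate fast versions and contract quickly. Mouse gastrocnemius is built mainly of fast fibres with a minority of slow fibres, so its slow transcripts come from a small share of the tissue. In a whole muscle, fewer fibres of a type and less RNA per fibre cannot be told apart.

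The skeletal muscle markers Acta1, Ckm, Mb, Ryr1 and Cacna1s were bright in every mouse, while of 5 heart markers Myh6, Nppa and Tnni3 lay above the array median in all 16, Myl7 in 5 and Nppb in none. Even so, Myh6, Nppa and Tnni3 were dim, with means of 5.19, 5.00 and 5.01 log2 units in deletion muscle. In control muscle their means were 5.25, 5.02 and 5.16, against array medians of 4.43 to 4.61. None of the 3 targeted transcripts passed the test in whole muscle. Foxo1 averaged 7.36 ± 0.36 log2 units in deletion muscle and 7.29 ± 0.06 in control muscle (SD, n = 8 each, adjusted p = 0.804 by limma). Foxo3 averaged 5.88 ± 0.40 in deletion and 5.38 ± 0.16 in control muscle (adjusted p = 0.0762), and Foxo4 averaged 7.18 ± 0.26 in deletion and 7.42 ± 0.15 in control muscle (adjusted p = 0.236). Control 5 stood apart in its slow genes, although its array correlated with the others as well as most (mean r 0.974). The main results are therefore given with and without that mouse.

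None of the 43 genes passed the test between the groups. With limma over all 13601 genes, 0 of 43 reached an adjusted p under 0.05, against 1.83% of all genes (249 genes, 208 of them higher and 41 lower in deletion muscle). With each array centred on its median the same test called 126 genes higher and 67 lower, and after quantile normalization 155 higher and 59 lower. At an unadjusted p under 0.05 the count was 2 of 43, Pln and Ankrd2, against 17.3% of all genes. No member separated the groups without overlap, against 0.353% of all genes. The median difference, deletion minus control, was 0.27 log2 units over the slow genes, 0.01 over the fast genes, -0.01 over the other genes and 0.00 over all genes tested. The sign was positive for 13 of 16 slow, 9 of 17 fast and 4 of 10 other genes. Without control 5 the medians were -0.02 over the slow, 0.04 over the fast and -0.02 over the other genes, and the sign was positive for 7 of 16 slow, 12 of 17 fast and 4 of 10 other genes.

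**Figure D1:**
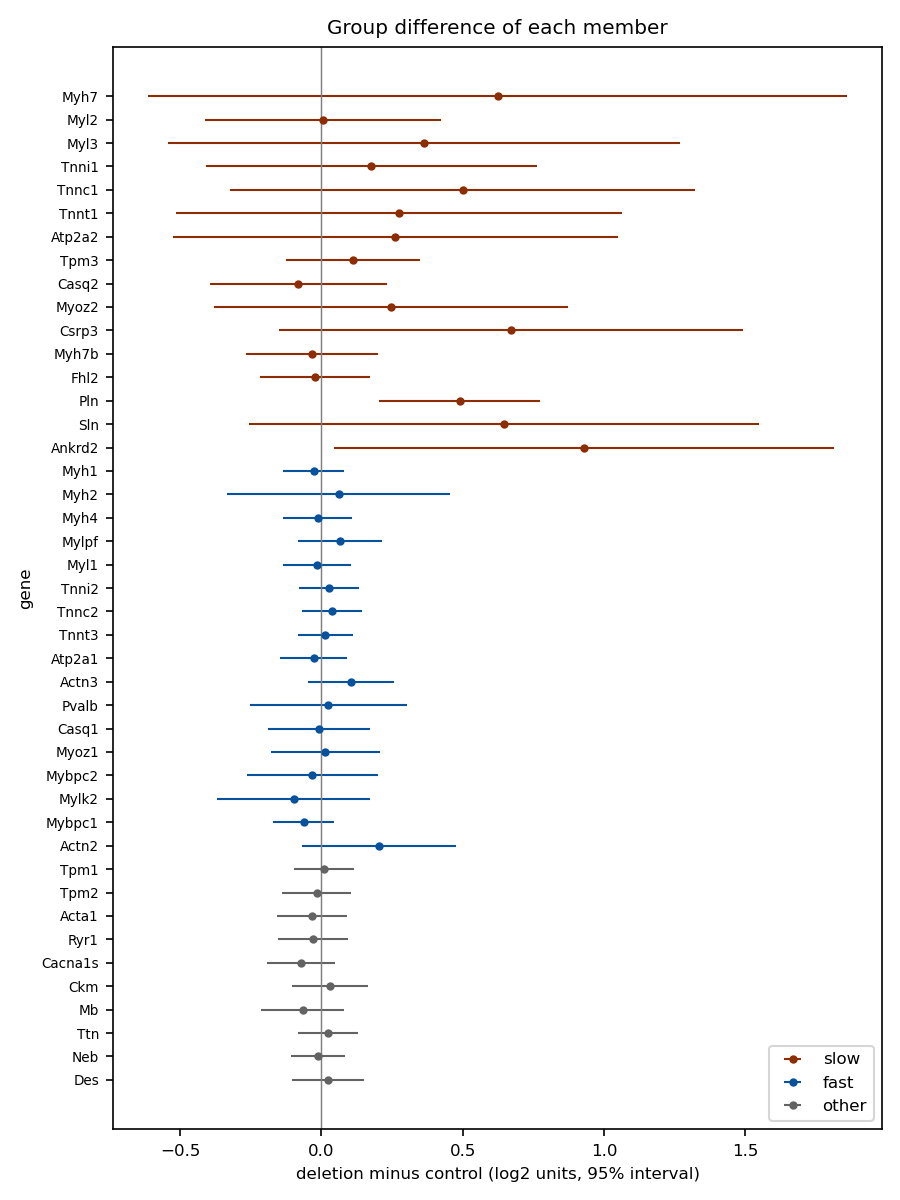
Difference of each gene (deletion minus control, log2 units) with its 95% confidence interval from limma, in rows for the 16 slow, 17 fast and 10 other genes. Most slow genes have wide intervals, out to 1.86 for Myh7, but some, such as Fhl2 (-0.22 to 0.17), have narrow ones. Most fast and other genes have narrow intervals around 0, with wider ones for some, such as Myh2 (-0.33 to 0.46) and Actn2 (-0.07 to 0.48).

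The slow thick-filament genes had a wide range in both groups. Myh7, the slow myosin heavy chain, ran from 8.79 through a median of 9.99 to 11.15 log2 units in deletion muscle, and from 4.99 through a median of 9.80 to 10.48 in control muscle. The groups overlapped, deletion 7 had the highest value and control 5 the lowest of all 16. The difference was 0.62 log2 units (SE 0.59, interval -0.61 to 1.86, adjusted p = 0.625). Without control 5 it was 0.02 (SE 0.28, adjusted p = 0.988). In control 5 Myh7 was 4.87 log2 units under the mean of the other controls, which is 29.3-fold lower. Myl3, the essential light chain of slow and ventricular muscle, ran from 7.14 (median 8.42) to 9.56 in deletion muscle, against 5.06 (median 8.25) to 8.85 in control muscle. It was 9.81-fold lower in control 5 than in the other controls, and its group difference was 0.36 (SE 0.43, adjusted p = 0.711), or -0.05 without that mouse. Myl2, the slow and ventricular regulatory light chain, varied less: it ran from 5.20 (median 6.10) to 6.91 in deletion muscle, against 5.45 (median 6.11) to 6.37 in control muscle. Its lowest value belonged to deletion 3, and its difference was 0.01 (SE 0.20, adjusted p = 0.992), or -0.08 without control 5. Myh7b, a relative of Myh7 known from heart, slow muscle and eye muscle, ran from 4.70 (median 5.09) to 5.54 in deletion muscle and from 4.79 (median 5.19) to 5.35 in control muscle, and control 5 was not low for it. Its difference was -0.03 (adjusted p = 0.909).

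The slow troponin subunits, which make the thin filament sensitive to calcium, followed Myh7 from mouse to mouse. Tnnc1, the calcium-binding subunit of slow and heart muscle, ran from 8.15 (median 8.99) to 10.31 in deletion muscle, against 6.06 (median 8.92) to 9.45 in control muscle. Its difference was 0.50 (SE 0.39, adjusted p = 0.540), and 0.13 (adjusted p = 0.838) without control 5. Tnnt1, the subunit that binds tropomyosin, ran from 7.69 (median 8.58) to 9.68 in deletion muscle, against 5.79 (median 8.68) to 9.19 in control muscle. Tnni1, the inhibitory subunit, ran from 6.08 (median 7.03) to 8.26 in deletion muscle, against 5.52 (median 7.02) to 7.61 in control muscle. In each of the 3 the highest value of all 16 was deletion 7 and the lowest was control 5. Control 5 was 7.56-fold lower than the mean of the other controls for Tnnc1, 7.64-fold lower for Tnnt1 and 2.89-fold lower for Tnni1. Tpm3, the slow tropomyosin, had 2 single-symbol probe sets that did not tell the same story. The brighter on average ran from 5.86 to 6.77 in deletion muscle and from 6.09 to 6.67 in control muscle, with control 5 at 6.09. The dimmer ran from 5.88 to 6.97 in deletion muscle, and in control muscle lay at 4.20 in control 5 and between 5.93 and 6.65 in the others. The differences of the brighter and dimmer probe sets were 0.11 (adjusted p = 0.650) and 0.28 (adjusted p = 0.633). Which of them reads the main Tpm3 transcript of muscle was not tested.

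**Figure D2:**
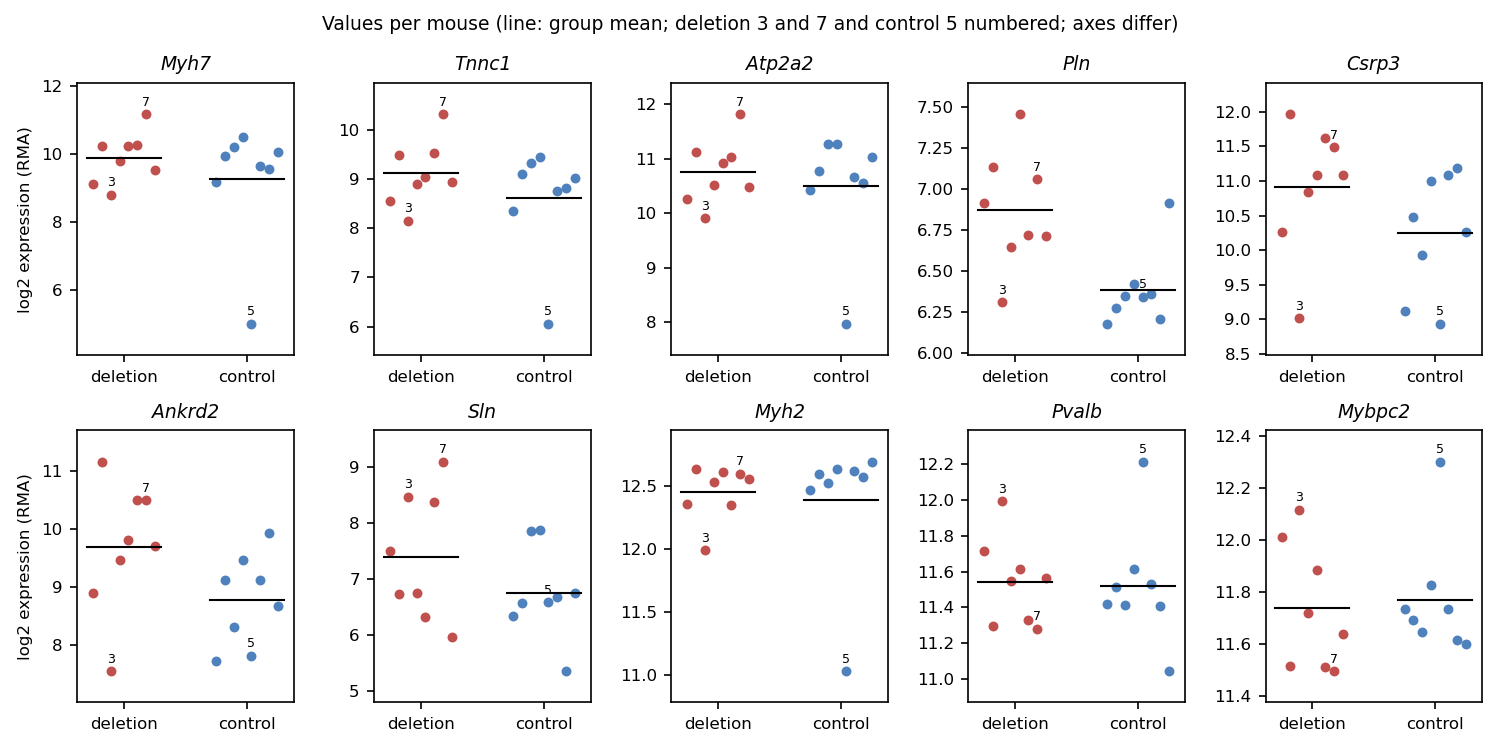
Log2 expression of 10 genes in each deletion mouse (left) and each control mouse (right), with a line at the group mean and an axis of its own for each gene. Control 5 lies far under the other controls for Myh7, Tnnc1, Atp2a2 and Myh2 and above them for Pvalb and Mybpc2, but not for Pln or Sln.

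Promoter sequences are shown for 3 slow genes that moved together from mouse to mouse, Tnnc1, Myl3 and Myoz2, and for Myh4, a fast myosin gene that moved the other way. They are the 250 bases before the annotated start, from RefSeq on GRCm38.p6, read on the gene's strand. Capitals mark the motifs searched on both strands: the MCAT box CATTCC (bound by TEAD factors), the E-box CAGCTG (bound by myogenic factors such as MyoD), the TATA box TATAAA, and the MEF2 and SRF CArG boxes by name. The MEF2 match in Myh4 overlaps a TATA box match, and the capitals there cover both. Each of these matches lies on the strand opposite to the one printed. Tnnc1 lies at chr14:31208062-31208311 (plus strand), Myl3 at chr9:110763428-110763677 (plus), Myoz2 at chr3:123034988-123035237 (minus) and Myh4 at chr11:67237562-67237811 (plus).
Tnnc1: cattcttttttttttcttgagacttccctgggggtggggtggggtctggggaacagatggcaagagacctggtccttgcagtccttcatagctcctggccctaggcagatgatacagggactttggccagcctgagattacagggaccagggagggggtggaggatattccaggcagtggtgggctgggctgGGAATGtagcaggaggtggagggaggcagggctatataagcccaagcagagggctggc
Myl3: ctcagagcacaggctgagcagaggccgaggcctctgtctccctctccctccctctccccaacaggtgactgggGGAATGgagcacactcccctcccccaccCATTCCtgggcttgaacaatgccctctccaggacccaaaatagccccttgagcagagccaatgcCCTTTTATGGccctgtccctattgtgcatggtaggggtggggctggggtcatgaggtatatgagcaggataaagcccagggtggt
Myoz2: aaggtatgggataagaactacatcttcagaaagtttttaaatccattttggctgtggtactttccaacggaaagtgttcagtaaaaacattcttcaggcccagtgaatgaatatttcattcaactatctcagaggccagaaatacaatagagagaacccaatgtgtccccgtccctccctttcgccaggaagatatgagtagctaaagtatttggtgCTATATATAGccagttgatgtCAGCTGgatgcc
Myh4: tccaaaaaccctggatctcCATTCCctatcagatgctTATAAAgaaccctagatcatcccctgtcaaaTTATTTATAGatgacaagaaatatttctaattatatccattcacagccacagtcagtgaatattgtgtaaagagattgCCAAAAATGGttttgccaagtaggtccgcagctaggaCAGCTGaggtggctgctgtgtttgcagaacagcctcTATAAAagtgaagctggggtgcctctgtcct
The Tnnc1 window held an MCAT box 58 bases before the start, and the Myl3 window a CArG box 85 bases before it. The Myoz2 window held a MEF2 match at 33 bases and an E-box at 12 bases, and the Myh4 window an E-box at 67 bases and a CArG box at 104 bases.

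Windows were found for 35 of the 43 genes, with 44 windows in all because some genes have several starts. An MCAT box lay in 15% of the 20 slow windows and 30.8% of the 13 fast windows, against 12.6% of all 32851 windows. The E-box was in 25% of slow and 46.2% of fast windows, against 13.0% of all, and in 63.6% of the 11 windows of the other genes. A MEF2 match was in 10% of slow and 23.1% of fast windows, against 1.69% of all. For the CArG box the shares were 15% of slow and 7.69% of fast windows, against 1.47% of all. The TATA box was in 25% of slow and 23.1% of fast windows, against 12.4% of all. No motif was confined to 1 fibre class among these windows, and a match describes letters and not a bound site.

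Of the slow calcium-handling genes the pump and the calcium store protein had their lowest value in control 5, and the 2 pump regulators did not. Atp2a2, the calcium pump SERCA2 of slow and heart muscle, ran from 9.91 (median 10.71) to 11.81 in deletion muscle, against 7.98 (median 10.71) to 11.27 in control muscle. It was 7.34-fold lower in control 5 than in the other controls, and its difference was 0.26 (SE 0.38, adjusted p = 0.767), or -0.10 without control 5. Casq2, the calcium store protein of heart and slow muscle, ran from 8.17 (median 8.45) to 9.14 in deletion muscle and from 7.97 (median 8.71) to 8.95 in control muscle, a difference of -0.08 (adjusted p = 0.827), or -0.18 (adjusted p = 0.549) without control 5. Pln encodes phospholamban, a small membrane protein that slows SERCA2. It read 6.92, 7.13, 6.31, 6.65, 7.46, 6.72, 7.06 and 6.72 log2 units in deletion mice 1 to 8, against 6.18, 6.28, 6.34, 6.42, 6.34, 6.36, 6.21 and 6.92 in control mice 1 to 8. The controls other than control 8 lay between 6.18 and 6.42, and deletion 3 was the only deletion mouse within that range. Above all 8 controls lay 4 of 8 deletion mice. The difference was 0.49 log2 units (SE 0.14, interval 0.21 to 0.77), with an unadjusted p of 0.0019 and an adjusted p of 0.0742. Pln passed the adjusted threshold in 4 of 27 alternatives, with array weights (0.0423), without control 8 (0.0416), without deletion 3 (0.0286) and without deletion 8 (0.0456). Without the 6 mice with high albumin transcript the difference was 0.27 and the adjusted p 0.493. Those mice were deletion 1, 2, 4 and 5 and control 2 and 7, so the deletion group lost more mice. Among them, deletion 5 and 2 had the highest Pln values of all mice. Control 5 was not low for Pln (6.34), and without that mouse the difference was 0.48 (adjusted p = 0.122). Sln encodes sarcolipin, another small inhibitor of the SERCA pumps, and was among the most variable genes of the muscle. It ran from 5.96 (median 7.12) to 9.09 in deletion muscle, against 5.35 (median 6.63) to 7.88 in control muscle. Deletion 7, 3 and 6 were the 3 highest, control 7 was the lowest, and the difference was 0.65 (SE 0.43, adjusted p = 0.457).

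The Z-disc genes of the slow group, whose products sit where thin filaments are anchored, held the largest and second largest differences of the 43 genes. Ankrd2, an ankyrin-repeat protein of slow fibres whose transcript is known to respond to stretch, read 8.90, 11.17, 7.55, 9.47, 9.81, 10.50, 10.50 and 9.71 in deletion mice 1 to 8. It read 7.72, 9.12, 8.30, 9.47, 7.81, 9.12, 9.94 and 8.68 in control mice 1 to 8. Deletion 3 was the lowest of all 16 and 3 deletion mice lay above every control. The difference was 0.93 log2 units (SE 0.42, interval 0.04 to 1.81, unadjusted p = 0.0406, adjusted p = 0.265), the largest of the 43, and 0.79 without control 5 (adjusted p = 0.383). Csrp3, the muscle LIM protein of the Z-disc, ran from 9.01 (median 11.08) to 11.96 in deletion muscle, against 8.94 (median 10.37) to 11.19 in control muscle. Its difference was 0.67 (SE 0.39, adjusted p = 0.386), and 0.48 without control 5 (adjusted p = 0.560). Csrp3 and Ankrd2 moved almost as 1 gene over the 16 mice (Pearson r 0.97, Spearman rho 0.96), and r was 0.97 over the 14 mice without control 5 and deletion 7. This pair was picked after its values were seen. Myoz2, a calsarcin that ties calcineurin to the Z-disc of slow and heart muscle, ran from 9.11 (median 10.53) to 10.89 in deletion muscle, against 8.20 (median 10.34) to 10.48 in control muscle. It was 4.48-fold lower in control 5 than in the other controls, which lay between 10.17 and 10.48, and its difference was 0.25 (adjusted p = 0.716), or -0.02 (adjusted p = 0.969) without control 5. Fhl2, a LIM protein best known from heart, ran from 5.81 (median 5.95) to 6.35 in deletion muscle and from 5.66 (median 6.07) to 6.24 in control muscle, a difference of -0.02 (adjusted p = 0.928), or -0.08 without control 5.

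The fast genes differed little between the groups. From mouse to mouse, Myh2, Pvalb, Mylk2, Actn2, Mybpc2 and Myoz1 varied more within groups than the median gene. Without control 5 this held for Pvalb, Mylk2, Actn2 and Mybpc2 but not for Myh2 or Myoz1. The differences of the 17 ran from -0.10 (Mylk2, the light chain kinase of skeletal muscle) to 0.20 (Actn2), with adjusted p-values from 0.431 to 0.971. Without control 5 they ran from -0.13 to 0.14. Myh4, the myosin heavy chain of type IIB fibres, ran from 13.23 (median 13.39) to 13.58 in deletion muscle, against 13.35 (median 13.38) to 13.54 in control muscle. Its difference was -0.01, with an interval of -0.13 to 0.11. Myh1, the type IIX heavy chain, ran from 12.70 to 12.84 in deletion muscle and from 12.73 to 12.93 in control muscle, a difference of -0.03 (interval -0.13 to 0.08). Myh2, the heavy chain of the oxidative type IIA fibres, ran from 11.99 (median 12.55) to 12.64 in deletion muscle, against 11.03 (median 12.59) to 12.70 in control muscle. The 7 controls other than control 5 lay between 12.47 and 12.70, and control 5 was 2.95-fold lower than their mean, so that this mouse was low in Myh2 as well as in Myh7. Deletion 3 was the lowest deletion mouse for Myh2. The fast light chains Mylpf and Myl1 differed by 0.07 and -0.02, and the fast troponins Tnni2, Tnnc2 and Tnnt3 by 0.03, 0.04 and 0.01.

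Several fast calcium and thick-filament genes were highest in control 5, the mouse with the lowest slow genes. The calcium store gene Casq1 and the Z-disc gene Actn3 were highest in deletion 3, and the Z-disc gene Myoz1 in deletion 5. Pvalb, the calcium buffer parvalbumin of fast fibres, ran from 11.28 (median 11.56) to 11.99 in deletion muscle, against 11.04 (median 11.47) to 12.22 in control muscle. Control 5 had the highest Pvalb of all 16 mice and deletion 3 the next, and the group difference was 0.02 (SE 0.13, adjusted p = 0.949), or 0.12 (adjusted p = 0.602) without control 5. Mybpc2, the fast myosin-binding protein C, ran from 11.50 (median 11.68) to 12.12 in deletion muscle, against 11.60 (median 11.71) to 12.30 in control muscle, where 12.30 was control 5. Atp2a1, the fast calcium pump SERCA1, ran from 12.99 to 13.20 in deletion muscle and from 12.97 to 13.31 in control muscle, with control 5 again the highest. Casq1, the fast calsequestrin, ran from 12.45 to 12.98 in deletion muscle and from 12.40 to 12.94 in control muscle. Myoz1, the fast calsarcin, ran from 11.11 to 11.69 in deletion muscle and from 11.15 to 11.69 in control muscle. Actn3, the alpha-actinin of glycolytic fast fibres, ran from 12.79 (median 13.00) to 13.27 in deletion muscle, against 12.81 (median 12.86) to 13.19 in control muscle. Its difference was 0.10 (SE 0.07, adjusted p = 0.479), and 0.14 (adjusted p = 0.320) without control 5. Mylk2 ran from 10.28 to 11.01 in deletion muscle and from 10.47 to 11.32 in control muscle, with control 5 at 11.32.

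Both Mybpc1 and Actn2 were classed as fast in the list although slow fibres make them too. Mybpc1, a myosin-binding protein C found in slow and fast fibres, ran from 12.83 (median 12.88) to 13.02 in deletion muscle, against 12.91 (median 12.97) to 13.06 in control muscle. Its difference was -0.06 (SE 0.05, adjusted p = 0.553), and 5 of 8 deletion mice lay under every control. Actn2, the alpha-actinin of all fibres, ran from 11.88 (median 12.48) to 12.74 in deletion muscle, against 11.59 (median 12.37) to 12.49 in control muscle. Actn2 followed the slow genes, with control 5 lowest and deletion 3 next, and its difference was 0.20 (SE 0.13, adjusted p = 0.431), or 0.11 without control 5.

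The 10 other genes differed by -0.07 to 0.03 log2 units, with adjusted p-values from 0.547 to 0.951. Cacna1s, the voltage sensor of the T-tubule, had the largest difference of the 10, with 11.08 to 11.27 in deletion muscle and 11.12 to 11.43 in control muscle (difference -0.07, SE 0.06). Ryr1, the calcium release channel, ran from 12.02 to 12.34 in deletion muscle and from 12.15 to 12.34 in control muscle. Mb, the oxygen store myoglobin of oxidative fibres, ran from 12.46 to 12.93 in deletion muscle, with deletion 3 lowest and deletion 7 highest. In control muscle Mb was 12.62 in control 5 and 12.81 to 12.89 in the other controls, and its difference was -0.07 (SE 0.07). Ckm, the muscle creatine kinase, ran from 12.67 to 12.98 in deletion muscle and from 12.66 to 13.02 in control muscle, with control 5 the highest. Acta1 (skeletal alpha-actin), the tropomyosins Tpm1 and Tpm2, Des (desmin) and the giant proteins Ttn (titin) and Neb (nebulin) differed by -0.03 to 0.02.

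**Figure D3:**
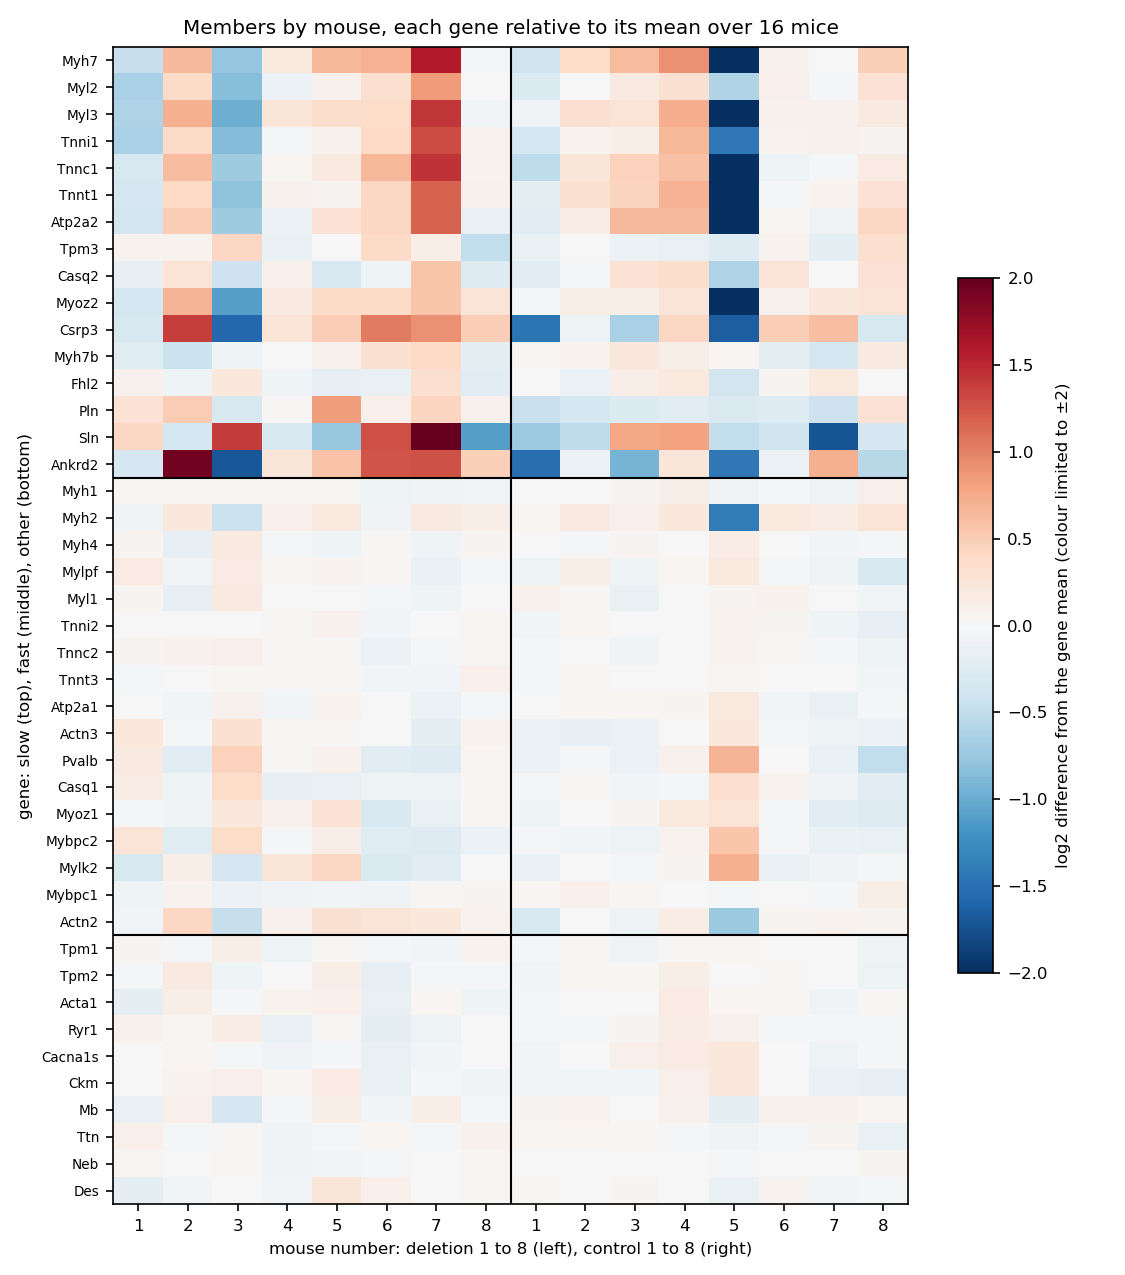
Each of the 43 genes (rows) in each mouse (columns, deletion 1 to 8 left of control 1 to 8), as the log2 difference from the gene's mean over 16 mice, with colour limited to 2 in size. Control 5 and deletion 3 are low and deletion 7 is high in the upper slow rows, and most fast and other rows are pale. Among the fast rows, Myh2 and Actn2 are low and Pvalb and Mylk2 high in control 5.

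A slow index and a fast index were computed per mouse as the mean, over the genes of a class, of the log2 difference from each gene's mean over 16 mice. Their difference is the slow minus fast balance. The balance was -0.28, 0.48, -0.62, 0.02, 0.09, 0.57, 1.06 and -0.09 in deletion mice 1 to 8, against -0.36, 0.01, 0.17, 0.35, -1.63, 0.01, 0.01 and 0.21 in control mice 1 to 8. The groups overlapped over most of their range, and the single value far from the rest was control 5. The balance averaged 0.15 ± 0.53 in deletion muscle and -0.15 ± 0.63 in control muscle (SD, n = 8 each), a difference of 0.31. Without control 5 the controls averaged 0.06 ± 0.22 (SD, n = 7) and the difference was 0.10. It was 0.18 without deletion 7 and -0.03 without both. Those mice were picked for the highest and lowest balance, so leaving them out had to lower the difference. Without the mouse at the other end of its group it was larger, 0.42 without deletion 3 and 0.38 without control 4. The size of the difference thus depended on which single mice were included. Deletion 7 and control 5 also had the highest (7.54) and lowest (5.05) mean log2 level of adipocyte markers, whose part was not tested. No p is given for the balance, since the genes were chosen with results of these mice known. The slow index averaged 0.16 ± 0.48 in deletion muscle and -0.16 ± 0.61 in control muscle, a difference of 0.32, or 0.12 without control 5. The fast index averaged 0.01 ± 0.06 in deletion and -0.01 ± 0.06 in control muscle. The balance therefore followed the slow index, which spanned -1.56 to 0.97. In the fast index, a mean over genes, opposite changes cancel. It was 0.08 in control 5, where 13 of the 17 fast genes lay above their own mean. Against the mean of the other controls, Myh2 and Actn2 differed there by -1.56 and -0.74 log2 units. Pvalb, Mylk2 and Mybpc2 differed by 0.80, 0.76 and 0.61.

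**Figure D4:**
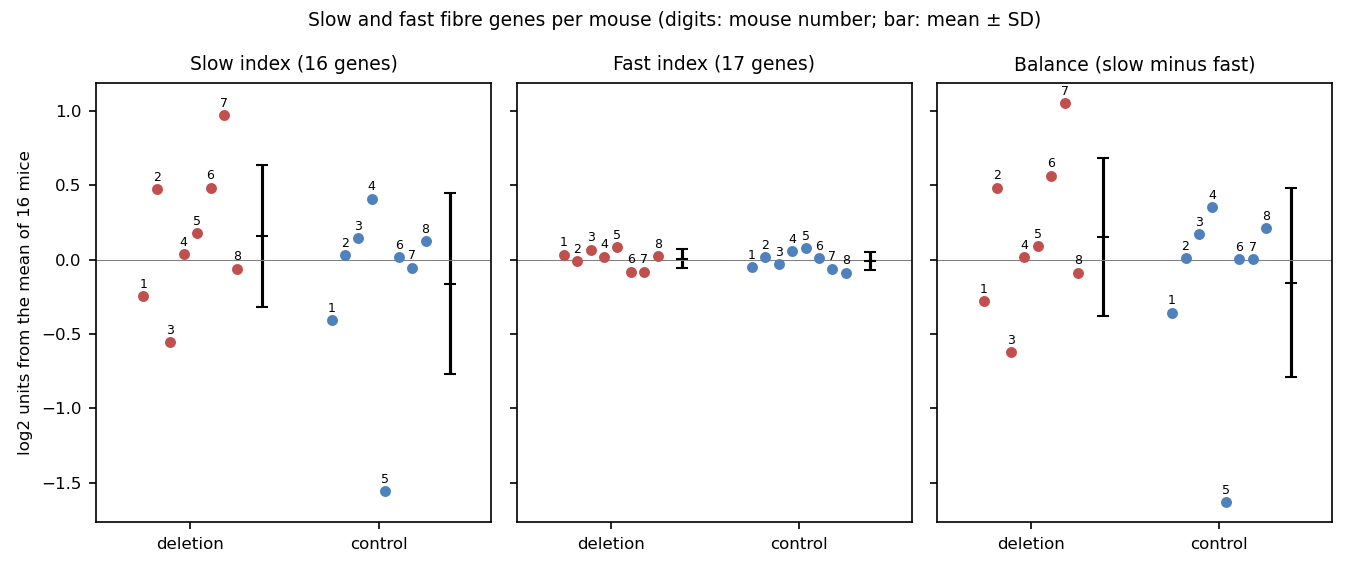
Slow index, fast index and slow minus fast balance of each mouse (log2 units from the mean of 16 mice), deletion left of control, with mouse numbers at the points and bars for mean ± SD. Control 5 has a balance of -1.63 and deletion 7 of 1.06. The fast index, in which opposite changes of single genes cancel, stays within 0.09 of 0 in every mouse.

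The balance was also taken over 8 slow and fast partners of the same protein (Tnni1 and Tnni2, Tnnc1 and Tnnc2, Tnnt1 and Tnnt3, Myl2 and Mylpf, Myl3 and Myl1, Atp2a2 and Atp2a1, Casq2 and Casq1, Myoz2 and Myoz1). The slow minus fast value was higher in deletion muscle for 6 of 8 pairs, with differences from -0.07 (the calsequestrins) to 0.46 (troponin C). Without control 5 it was higher for 1 of 8 pairs, with differences from -0.21 to 0.08. Control 5 was the lowest of 16 mice for 7 of the 8 pairs. Over these pairs alone the balance differed by 0.20 between the groups.

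Spread between mice within a group differed between the classes in its median, with overlap between single genes. The median within-group SD was 0.772 log2 units over the slow genes, 0.130 over the fast genes and 0.0927 over the other genes, against 0.180 over all genes tested. Without control 5 the medians were 0.483, 0.114 and 0.0933. Myh7 had an SD of 1.36, the 12th largest of 13601 genes, and ranked 126 without control 5. Sln ranked 32 and Ankrd2 35, and without control 5 they ranked 29 and 36, so their spread was as large without that mouse. Neb had the smallest SD of all 13601 genes (0.0324) and Tnnt3 the next (0.0423). Most fast and other genes lay near the top of the array's scale, where signals can be compressed. Tpm1 and Mylk2, with means of 9.11 and 10.56 in deletion muscle, did not. How much compression narrowed the spread of the bright genes was not tested.

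**Figure D5:**
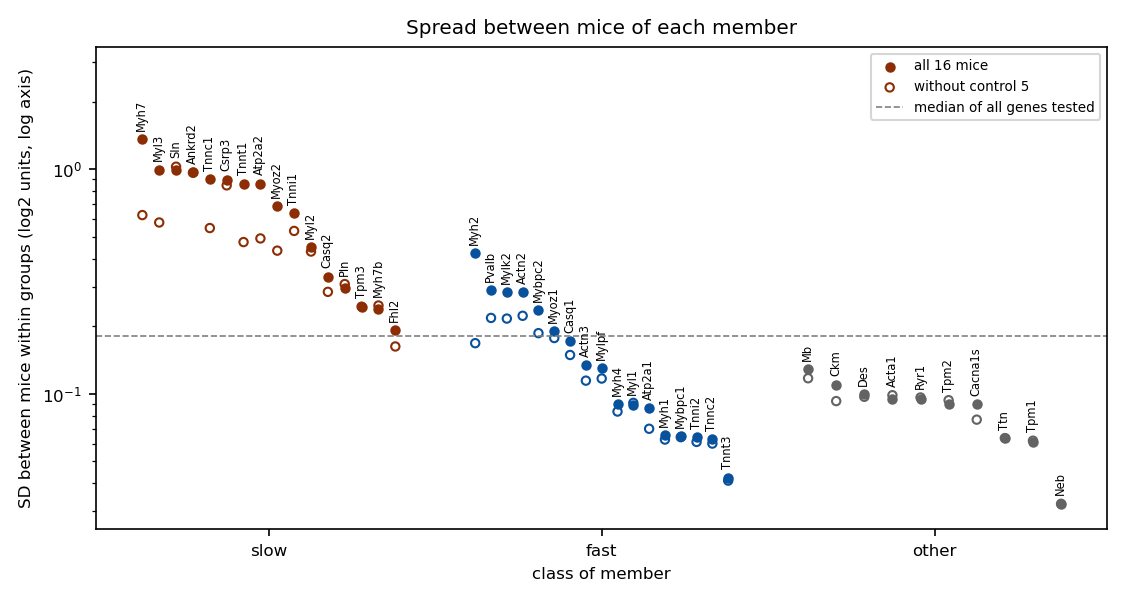
Within-group SD of each gene between mice (log2 units, log axis), by class, for all 16 mice (filled) and without control 5 (open). Myh7 lies at 1.36 with control 5 and 0.625 without it, and most fast and other genes lie under the dashed line, the median of all genes tested (0.180).

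Many of the slow genes varied together. Each gene was compared over the 16 mice with the slow index (its own gene left out), as a description of mice that share arrays of 1 processing, with no p. Pearson r was over 0.8 for 8 of 16 slow genes: Tnnc1 0.98, Atp2a2 0.96, Myl3 0.95, Tnnt1 0.95, Tnni1 0.95, Myh7 0.93, Myoz2 0.90 and Myl2 0.84. Spearman rho was 0.94, 0.94, 0.94, 0.86, 0.90, 0.97, 0.86 and 0.92 for these genes. Of all genes tested 0.287% had an r over 0.8. Without control 5 and deletion 7, the mice farthest from the median, 7 slow genes were over 0.8 (0.868% of all genes), with Tnnc1 at 0.96 and Myh7 at 0.93. Those 7 genes thus kept a high r among the other 14 mice. These still included low mice, deletion 3 with a slow index of -0.55 and control 1 with -0.41. Casq2 (0.78), Csrp3 (0.76) and Ankrd2 (0.69) followed more loosely, and Pln (0.44), Fhl2 (0.44, rho 0.05), Sln (0.25), Tpm3 (0.24) and Myh7b (0.24) followed least. Over the 14 mice Casq2 was at 0.58, Csrp3 at 0.73 and Ankrd2 at 0.67. Pln was then at 0.35, Myh7b at 0.19, Tpm3 at -0.04, Sln at -0.09 and Fhl2 at -0.36. Pln and its target Atp2a2 had an r of 0.37, and 0.26 over 14 mice.

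Among the fast genes Actn2 (r 0.89) and Myh2 (0.83) followed the slow index, Myh2 with 0.58 once control 5 and deletion 7 were left out and Actn2 with 0.88. Going the other way, 8 of 17 fast genes had an r under -0.5 (4.34% of all genes), among them Mybpc2 (-0.83), Pvalb (-0.78), Casq1 (-0.73) and Myh4 (-0.71). Over 14 mice the count was 5 of 17 (5.10% of all genes), with Mybpc2 at -0.64, Casq1 at -0.65 and Pvalb at -0.54. Within the 8 deletion mice 13 of 17 fast genes had a negative r with the slow index (median -0.63), and within the 7 controls other than control 5 the count was 2 of 17 (median 0.15). The 2 lowest r within the deletion mice were those of Actn3 (-0.97, and 0.54 in those controls) and Pvalb (-0.93 and 0.13). The deletion mice kept their extremes here, deletion 3 and 7, whereas the controls were taken without control 5. The slow index thus spanned 1.53 log2 units in the deletion mice and 0.82 in those controls, so the r values are not on equal terms. The share of all genes with a negative r within each group was not computed. Whether the groups differ in this was not tested. The slow genes had a positive r in all 16 cases in each group (medians 0.82 in both). Of the 10 other genes, whose median r was -0.003, Mb had the highest, 0.65 over 16 mice and 0.58 over 14.

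Some transcripts outside the list also had a high r with the slow index, and are named after their values were seen. The 12 with the highest r over 16 mice were Myom3 (0.93), an M-band protein, Fhl1, Prkd1, Lmod2, Homer2, Pdlim1, Klhl41, Nrap, Hspb7, Prox1 (0.84), Xpo4 and Hectd2os. Without control 5 and deletion 7 the r of Myom3 was 0.85 and that of Prox1 0.56. Myom3 read 6.93 in control 5 and 8.24 to 8.80 in the other controls. Eya4 (-0.93) had the most negative r, followed by Xpr1, Sar1b and Tmod1. Eya4 was 8.52 in control 5 and 7.63 to 8.13 in the other controls, and its r was -0.87 over 14 mice.

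Transcripts of other tissues varied beside the slow genes. The mean of 4 measured adipocyte markers (Adipoq, Plin1, Lep and Cidec, all above the array median in every mouse) was 5.09 to 7.54 log2 units in deletion muscle and 5.05 to 6.15 in control muscle. Deletion 7 was the highest, at 7.54, and control 5 the lowest, at 5.05, as for the slow genes (r with the slow index 0.64, and 0.61 without control 5). Summed on the linear scale, those markers were 799 in deletion 7 and 137 in control 5. The mean of 8 tendon markers was 6.62 to 7.12 in deletion muscle and 7.07 to 7.71 in control muscle, with control 5 the highest. Its r with the slow index was -0.39, and -0.04 without control 5. Of 10 nerve and Schwann cell markers 7 were measured, with means of 5.47 to 6.88 in deletion and 5.40 to 6.69 in control muscle (r 0.34). The r of the liver, smooth muscle, satellite cell and heart lists was 0.15, 0.31, -0.20 and -0.04. Their part in the slow gene values was not tested.

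Known regulators of fibre type were tested as a list of 41 genes, of which 38 were bright enough. None rose and 1 fell, against 1.83% of all genes, 7 had an unadjusted p under 0.05 (17.3% of all genes did), and the median difference was -0.07 against 0.00 over all genes. The gene that fell was Six4, a homeobox transcription factor of muscle. Six4 ran from 7.10 (median 7.21) to 7.73 in deletion muscle, against 7.57 (median 7.70) to 7.80 in control muscle, and 6 of 8 deletion mice lay under every control. The difference was -0.38 log2 units (SE 0.09, adjusted p = 0.0395), but it missed the threshold in 18 of 27 alternatives, whose adjusted p ran from 0.0136 to 0.218. Leaving out any 1 control, or any 1 of deletion 1, 3, 4, 6 and 7, was enough, with adjusted p-values of 0.0510 to 0.0868. Tead1, which binds the MCAT box, averaged 9.56 ± 0.18 in deletion and 9.84 ± 0.12 in control muscle (SD, n = 8 each; difference -0.28, adjusted p = 0.0821). Prkd1, a kinase that promotes slow genes in mouse muscle, differed by 0.22 (adjusted p = 0.252), and Ppargc1a, a coactivator of oxidative genes, by 0.25 (adjusted p = 0.421).

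Developmental, cardiac and smooth muscle versions of the contractile proteins formed a list of 21 genes, 16 of them tested. Of these 1 rose and none fell, against 1.83% of all genes changed, 2 had an unadjusted p under 0.05 against 17.3% of all genes, and the median difference was -0.06. Actn1, an alpha-actinin of non-muscle and smooth muscle cells, ran from 7.16 (median 7.63) to 8.08 in deletion muscle, against 7.02 (median 7.23) to 7.41 in control muscle. Its difference was 0.46 (SE 0.10, adjusted p = 0.0333), and only 1 of 8 deletion mice overlapped the controls. It missed the threshold in 16 of 27 alternatives (adjusted p 0.0032 to 0.344), among them without any 1 of controls 1, 2, 3, 5, 6 and 7 or deletion 1, 2, 4, 5 and 6 (0.0503 to 0.0688). Its non-muscle relative Actn4 differed by 0.40 (adjusted p = 0.0506), while the heart troponins Tnni3 and Tnnt2 differed by -0.15 (adjusted p = 0.307) and -0.31 (adjusted p = 0.357). Of 37 further Z-disc, M-band and sarcomere assembly genes 35 were tested, none passed and 3 had an unadjusted p under 0.05, against 17.3% of all genes. Unc45b, the myosin chaperone, differed by -0.25 (adjusted p = 0.108), Capn3 by -0.19, Fhl3 by 0.15 and Myom2 by 0.12. Of 20 further calcium and triad genes 18 were tested and 0 passed limma's adjusted threshold or an unadjusted p of 0.05. Stac3, Trdn, Slc8a3 and Fkbp1a had the smallest p-values in their directions, with differences of -0.17, -0.13, 0.20 and 0.08. Probe sets for the precursors of the muscle microRNAs Mir208b and Mir499, encoded in introns of Myh7 and Myh7b, lay under the array median in all 16 mice, so no level is given for them.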

How the data were processed

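Gastrocnemius RNA (250 ng per the labels) of 16 mice was hybridised to 16 arrays. The authors deposited 1 log2 value per probe set, which the authors computed with RMA in the oligo package, according to the submitters' processing notes (no versions named). That the base is 2 was judged from their range (0.329 to 13.8). Because RMA gives the probe values of all arrays 1 distribution, a shift shared by every transcript would be hidden. The deposited probe set values still differed somewhat between arrays, with array medians from 4.43 to 4.61. The sources used here give no array design, genome build or scan dates, so no batch was examined. Precision is limited by the number of mice.

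Of 41345 probe sets, 23521 had 1 gene symbol, 1814 several and 16010 none in the platform annotation. A gene was tested if 8 or more mice had its brightest single-symbol probe set over their array's median, as was so for 13601 genes. The tool was limma 3.58.1 (lmFit, eBayes; R 4.3.3), fitted with group alone and two-sided, and p-values were adjusted by Benjamini-Hochberg over all genes tested (threshold 0.05). The labels call each mouse a biological replicate. Figures were drawn with matplotlib 3.10.9.

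The members, the pathway and marker lists and the tests were chosen with earlier results of these data known. Named are all members and, of each pathway list, the genes past the threshold, otherwise those with the smallest p in each direction. Six4 and Actn1 were named by that rule, with Tead1, Actn4 and the other list genes given as values. Chosen after values were seen were the separate treatment of control 5 and deletion 7, the limit of 10 log2 units for the albumin transcript Alb, the gene pairs, the genes that follow the slow index, the precursor microRNAs and the motifs. Promoters come from RefSeq (GRCm38.p6). Alternatives were no filter, a stricter filter, 2 scalings, the mean of probe sets, another variance model, array weights, the replicate number as a block, nerve markers as a covariate, other make-ups of the balance and leaving out mice.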

Additional observations from a re-analysis of the deposited data

Results flagged for a closer look

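A value was picked out when its gap to the nearest mouse of its group, divided by the group's range, was above Dixon's critical value for 8 mice. Chance does this in about 1 of 20 groups. Of 94 groups examined 16 held such a value, 13 of them from control 5, and the genes are not independent.

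Control 5 was far under the other controls for 6 slow genes: Myh7 at 4.99 (others 9.17 to 10.48), Myl3 at 5.06 (others 8.05 to 8.85), Tnnc1 at 6.06 (others 8.35 to 9.45), Tnnt1 at 5.79 (others 8.30 to 9.19), Atp2a2 at 7.98 (others 10.42 to 11.27) and Myoz2 at 8.20 (others 10.17 to 10.48). It was also far under them for Myh2 at 11.03 (others 12.47 to 12.70) and Mb at 12.62 (others 12.81 to 12.89). It was far above the other controls for Actn3 at 13.19 (others 12.81 to 12.98), Mybpc2 at 12.30 (others 11.60 to 11.83) and Mylk2 at 11.32 (others 10.47 to 10.67). Its slow index was -1.56 (others -0.41 to 0.41) and its balance -1.63 (others -0.36 to 0.35).

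In the other mice, Pln was 6.92 in control 8 (other controls 6.18 to 6.42), Neb was 13.37 in control 8 (other controls 13.29 to 13.32), and Myh2 was 11.99 in deletion 3 (other deletion mice 12.35 to 12.64).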

How the results depend on the processing

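In all 27 alternatives no fast gene and none of the other 10 genes passed the threshold. Among the slow genes 1, Pln, passed with array weights and without control 8, deletion 3 or deletion 8, so leaving out 1 mouse gave 0 to 1 slow genes called. Pln differed by 0.27 to 0.57 over the 27 alternatives (adjusted p 0.0286 to 0.493). No called value turned its sign, and 29 of the 43 genes, none of them called, changed sign in some setting.

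The 249 genes changed over the whole array were 137 with no filter, 30 with the nerve markers as a covariate, 101 without control 5 and deletion 7, and 7 without the mice with Alb over 10. The mice with Alb over 10 were deletion 1, 2, 4 and 5 and control 2 and 7, an unequal loss between the groups. Leaving out 1 mouse gave 107 (without deletion 6) to 680 (without deletion 8) genes, and 131 without control 5. The cause was not tested, except that fewer mice were fitted where mice were left out. Over all genes tested, equal replicate numbers showed little pairing of the mice. The deviations of 4 of 8 pairs had a correlation over 0.1 (range -0.08 to 0.25), and 1 of 8 deletion mice matched its own number best. With the replicate block 213 genes and 0 members were called. The block lowered the SE of Ankrd2 from 0.42 to 0.27 (limma adjusted p = 0.109). For Csrp3 the SE went from 0.39 to 0.27 (adjusted p = 0.214), and for Pln it stayed at 0.14 (adjusted p = 0.103).

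The balance differed by 0.31 between the groups, by 0.20 to 0.31 under other scalings and make-ups, by 0.0954 to 0.417 when 1 mouse was left out, by 0.44 without the mice with Alb over 10, and by -0.03 without control 5 and deletion 7. Leaving out mice with Alb above the array median was not run, since 14 of 16 mice lay above it and 1 mouse per group remained. Depth cannot be given for arrays. Fast genes near the top of the scale and dim genes such as Myh7b can show compressed differences.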
